A study of Homo sapiens with 12 samples.

Results

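LRRC3DN, TTF2, FHL1 and ERH were the 4 genes examined, chosen because their 3′ untranslated regions (3′ UTRs) had high enrichment in libraries of myc-tagged wild type QKI-5 and of endogenous QKI. The clusters described are those that the annotation of the endogenous libraries assigns to one of these names, 69 of 616191 clusters over both endogenous libraries (35 of 384347 in library 1 and 34 of 231844 in library 2). Of the 69 clusters, 63 were annotated as 3′ UTR, among 31130 such clusters in all. All 69 carried 1 gene name only. No filter on low values was applied to them.

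The series mapped QKI on RNA with eCLIP, which sequences the RNA fragments that UV light has fixed to an immunoprecipitated protein and compares them with an input of the same fragment sizes. The mutant group came from cells transfected with 10 µg of a plasmid that encodes myc-QKI-5(K120A; R124A) and cultured for 72 hours. This form of the QKI-5 isoform has substitutions at a lysine and an arginine, numbered by residue. The wild type group received the same amount of myc-QKI-5 plasmid, and the endogenous group was unmodified. Each of the 3 groups had 2 immunoprecipitation libraries. The mutant and wild type libraries used an anti-MYC antibody and the endogenous libraries an anti-QKI antibody, so antibody and transfection cannot be told apart between wild type and endogenous. All cells were of the embryonic kidney line labelled HEK293xT and were crosslinked at 254 nm and 400 mJ/cm2. The labels name no removal of the cells' own QKI. The series' design note speaks of embryonic stem cells in cardiac differentiation instead. Clusters were listed in the endogenous libraries for 0 of 5 stem cell genes (POU5F1, SOX2, TDGF1, LIN28A and DPPA4), for 2 of 4 kidney or HEK293 lineage genes (PAX2 and NEFM, with none for LHX1 and GATA3), and for 2 of 5 cardiomyocyte genes, of which ACTN2 had 32 and 18 clusters and NKX2-5 had 1. A cluster is no measure of expression, and this count does not settle the conflict.

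QKI (Quaking) belongs to the STAR family of RNA-binding proteins. It dimerises and contacts RNA through a KH domain with a flanking QUA2 region, and it favours a short element with an ACUAA core. The QKI-5 isoform is mainly nuclear and is known for its role in pre-mRNA splicing, while other isoforms are found in the cytoplasm. In 3′ UTRs, QKI is known to influence the stability, transport and translation of mRNAs, a role best studied in myelinating cells.

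For every cluster the authors gave a log2 fold (immunoprecipitation over input) and a −log10 p, whose ceiling in the files is 400. A log2 fold of 3 and a −log10 p of 3 together were required to call a cluster enriched. Endogenous clusters of both libraries that overlapped or abutted on the same strand were joined into loci, and the overlapping cluster with the highest −log10 p, then the highest fold, stood for a locus in each library. This gave 23386 3′ UTR loci over all genes, of which 7 belonged to the 4 genes. Of the 69 endogenous clusters of the 4 genes, 39 were at the ceiling, so among them the highest fold decided. At TTF2 the endogenous values were picked from 8 and 8 clusters and the wild type values from 2 and 2. At FHL1 the numbers were 12 and 16 against 6 and 6. What this does to the folds was not tested. The mutant and wild type files list only clusters with a log2 fold above 0, so a missing cluster there was either not called or not above input. The genes were picked on the wild type and endogenous folds, so those folds are described here without a test. The stated choice did not use the mutant libraries.

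Of the 7 3′ UTR loci, 1 was enriched in mutant library 1 and 1 in mutant library 2, against backgrounds of 0.0428% and 0.0214% of all 3′ UTR loci. In wild type, 5 and 4 of the 7 were enriched in libraries 1 and 2, where the backgrounds were 1.15% and 1.06%. In endogenous, 7 and 5 were enriched, with backgrounds of 1.91% and 1.55%. The wild type and endogenous counts are high by construction. Of the 253 3′ UTR loci enriched in both endogenous libraries, 5 belonged to the 4 genes, namely the 4 leading loci and the smaller one of ERH. Among these 5, 1 and 1 were enriched in mutant libraries 1 and 2 (backgrounds 0.791% and 0.395%), and 5 and 4 in wild type libraries 1 and 2 (backgrounds 43.1% and 37.5%). The background for both mutant libraries together was 0.395%, which is 1 locus, TTF2. Over the loci with a listed cluster, the median log2 fold was 0.90 and 0.65 in the mutant libraries, 6.93 and 6.76 with wild type QKI-5, and 6.43 and 7.79 with endogenous QKI. These medians cover different sets of loci, since the listed loci differed between libraries. At the leading loci, the wild type fold was below the endogenous fold in 8 of 8 same-numbered library pairs.

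**Figure D1:**
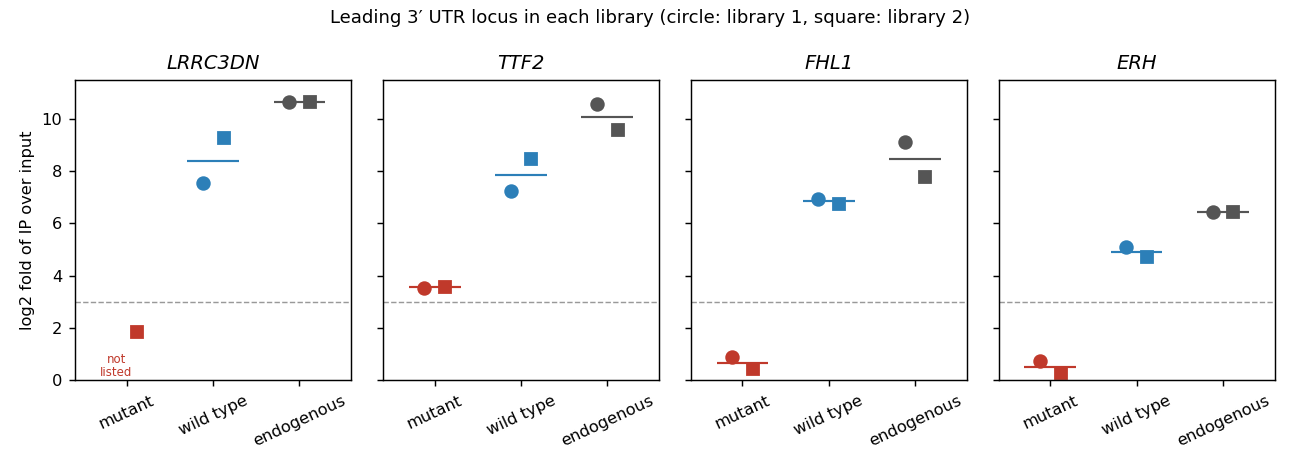
Log2 fold of immunoprecipitation over input (vertical axis) at the leading 3′ UTR locus of each gene, in the mutant, wild type and endogenous groups (horizontal axis). Circles and squares are libraries 1 and 2, short lines are means of 2 listed values, and the dashed line marks a log2 fold of 3. TTF2 is the gene whose mutant values, 3.55 and 3.56, lie above that line.

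LRRC3DN had the highest endogenous fold among the leading 3′ UTR loci of 222 genes. A leading locus was the one with the highest mean endogenous fold among those enriched in both endogenous libraries. Loci with more than 1 gene name were left out of the 222. The files name this transcript LRRC3DN (ENSG00000269430.1), and the RefSeq gene table lists the name as a synonym of LRRC3, a gene for a leucine-rich repeat protein. Its single locus covered 271 bases of hg19 chromosome 21 (45880630 to 45880900, plus strand). The log2 fold was not listed in mutant library 1 and was 1.84 in mutant library 2, with a −log10 p of 1.30. It was 7.53 and 9.28 with wild type QKI-5, and 10.63 and 10.65 with endogenous QKI. The group means were 8.41 ± 1.23 in wild type and 10.64 ± 0.01 in endogenous (SD, n = 2 each), which correspond to 339-fold and 1596-fold over input. The groups did not overlap, and the wild type libraries lay further apart than the endogenous ones. Wild type and endogenous folds chose the genes, so this gap carries no test. How many other 3′ UTR loci show such a gap was not counted.

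No cluster of LRRC3DN lay outside this locus. The clusters that the files assign to LRRC3 itself end 1931 bases before it. They numbered 7 and 5 in the endogenous libraries, with log2 folds from 1.14 to 3.34, and 2 of them passed both thresholds. The LRRC3DN clusters thus differed from those of LRRC3 in position and in fold.

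TTF2 encodes an ATPase of the SNF2 family that releases RNA polymerase II from its template and is known for clearing transcripts from mitotic chromosomes. Its 3′ UTR locus (TTF2, ENSG00000116830.7) covered 193 bases of hg19 chromosome 1 (117645299 to 117645491, plus strand). The annotation also places these bases in a distal intron of the noncoding transcript lnc-TTF2-2 on the same strand, and the files do not separate the reads of these transcripts. The log2 fold was 3.55 and 3.56 in the mutant libraries, 7.23 and 8.46 with wild type QKI-5, and 10.58 and 9.56 with endogenous QKI. The group means were 3.55 ± 0.01 in the mutant, 7.84 ± 0.87 in wild type and 10.07 ± 0.72 in endogenous (SD, n = 2 each), or 11.8-fold, 229.8-fold and 1077-fold over input. The 2 endogenous values came from clusters that share no base, so their SD does not measure agreement at the same bases. The groups did not overlap, with the same limits as at LRRC3DN. The −log10 p was 7.84 and 4.93 in the mutant libraries and at the cap of 400 in the other 4 libraries.

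TTF2 was the 1 locus among 23386 in 3′ UTRs that was enriched in both mutant libraries, and the background of 0.00428% is TTF2 itself. Only 1309 of these loci had a listed cluster in both mutant libraries. In mutant library 1, 4164 3′ UTR loci had a listed cluster and 10 were enriched. In mutant library 2, 3477 had one and 5 were enriched. TTF2 was singled out here after its mutant values were seen. With other cut-offs, tried once the values were known, the count changed. At a −log10 p of at least 5 no 3′ UTR locus passed in both mutant libraries, since TTF2 was at 4.93 in library 2, and at a log2 fold of at least 4 none did. At a log2 fold of at least 2 there were 2 such loci, TTF2 and SLC38A2.

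Among the leading loci of the 222 genes, 47 were listed in mutant library 1 and 34 in mutant library 2. There TTF2 ranked at 2 from the highest in library 1, after HNRNPK at 4.46, and at 1 in library 2. HNRNPK, which encodes an hnRNP protein with KH domains, was not listed in mutant library 2. The medians of all listed leading loci were 1.00 and 1.03. FHL1 lay at rank 25 and 26 and ERH at rank 29 and 28 in mutant libraries 1 and 2, while LRRC3DN was at rank 7 in library 2 alone. At FHL1 and ERH, then, the mutant values were below the median of the listed genes, and at TTF2 they were above it.

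**Figure D2:**
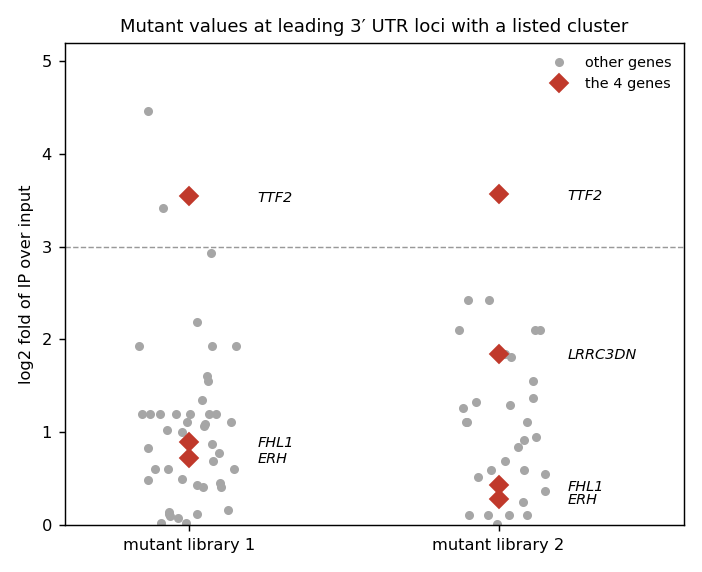
Log2 fold over input (vertical axis) in mutant libraries 1 and 2 (horizontal axis) at the leading 3′ UTR loci that had a listed cluster, 47 and 34 genes. Red diamonds are the 4 genes, grey points are the other genes with random sideways shift, and the dashed line marks a log2 fold of 3. TTF2 stands at 3.55 and 3.56, and FHL1 and ERH lie below 1 in both libraries.

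The authors' list of reproducible mutant peaks was made from the same libraries. Of its 55 peaks, 2 lay on a 3′ UTR locus, among them one in TTF2 (117645335 to 117645386, plus strand, 52 bases), with the authors' log2 fold for the pair of 3.45.

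FHL1 encodes a LIM-domain protein of skeletal and cardiac muscle, and variants in this gene are known from X-linked myopathies. Its 3′ UTR held the most clusters of the 4 genes, 15 and 16 in the endogenous libraries. The leading locus (FHL1, ENSG00000022267.12) was the widest, with 429 bases of hg19 chromosome X (135292644 to 135293072, plus strand). The log2 fold was 0.90 and 0.43 in the mutant libraries, 6.93 and 6.76 with wild type QKI-5, and 9.11 and 7.79 with endogenous QKI. The group means were 0.66 ± 0.33 in the mutant, 6.85 ± 0.12 in wild type and 8.45 ± 0.93 in endogenous (SD, n = 2 each). In each group the 2 values came from clusters that share no base, so these SDs do not measure agreement at the same bases. The groups did not overlap, with the same limits as at LRRC3DN, and the mutant −log10 p was 0.80 and 0.53. Taking the cluster with the highest fold in place of the highest −log10 p moved the wild type mean to 7.22, since a 20-base cluster of wild type library 2 stood at 7.50 with a −log10 p below the cap.

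A further pair of FHL1 3′ UTR loci lay downstream of the leading one, at 135293092 to 135293130 and 135293400 to 135293430. They had log2 folds of 4.53 and 4.82 in endogenous library 1. Neither was listed in endogenous library 2 or in any mutant or wild type library, so they have no replicate.

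ERH encodes a small, highly conserved nuclear protein that partners with the Microprocessor and with splicing factors. Its leading locus (ERH, ENSG00000100632.6) covered 157 bases of hg19 chromosome 14 (69846871 to 69847027, minus strand). The log2 fold was 0.72 and 0.28 in the mutant libraries, 5.10 and 4.73 with wild type QKI-5, and 6.43 and 6.43 with endogenous QKI. The group means were 0.50 ± 0.31 in the mutant, 4.91 ± 0.27 in wild type and 6.43 ± 0.00066 in endogenous (SD, n = 2 each). In wild type and in endogenous, the 2 values came from clusters that share no base. Those SDs thus do not measure agreement at the same bases. The groups did not overlap, with the same limits as at LRRC3DN. ERH had the lowest wild type and endogenous folds of the 4 genes, 30.1-fold and 86.1-fold over input at the group means.

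A smaller ERH locus of 45 bases lay 31 bases upstream on the transcript (69847059 to 69847103, minus strand). It was not listed in mutant library 1 and was at 0.65 in mutant library 2, where a 164-base cluster shared 1 base with it. The wild type libraries had 4.92 and 2.88 and the endogenous libraries 4.02 and 4.04. The wild type values lay on both sides of the endogenous ones, unlike at the leading locus. This locus passed the threshold in wild type library 1 and missed it in library 2.

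The mutant minus wild type difference in log2 fold, by library number, was −3.68 and −4.90 at TTF2, −6.04 and −6.34 at FHL1, and −4.38 and −4.44 at ERH. At LRRC3DN it could be formed for number 2 alone, at −7.43. Each value stands for 1 cluster of a locus, and the clusters compared need not share bases. At FHL1 in library 1, the mutant cluster was centred 162 bases downstream of the locus centre and the wild type cluster 107 bases upstream. The wild type library 1 clusters that overlapped this mutant cluster were at 4.97 and 4.14. The mutant minus wild type differences carry no test because the wild type values chose the genes, and protein amounts were not analysed here. The wild type minus endogenous difference, also a description since both sets of folds chose the genes, was −3.10 and −1.37 at LRRC3DN, −3.35 and −1.10 at TTF2, −2.17 and −1.03 at FHL1, and −1.33 and −1.70 at ERH. The median log2 fold of leading loci was 2.97 and 2.82 in wild type, over the 213 and 208 genes listed there, and 4.26 and 4.09 in endogenous, over all 222. These medians cover different sets of genes, and the loci were picked on the endogenous libraries.

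**Figure D3:**
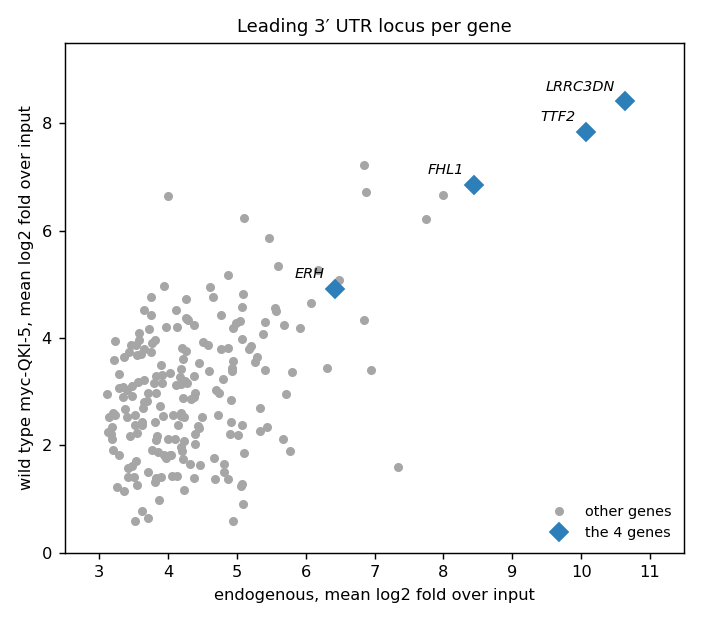
Mean log2 fold over input in the 2 wild type libraries (vertical axis) against the 2 endogenous libraries (horizontal axis) at the leading 3′ UTR locus of each gene, for the 203 of 222 genes listed in both wild type libraries. Blue diamonds are the 4 genes and grey points the others. LRRC3DN and TTF2 stand apart at the upper right, FHL1 follows, and ERH at 4.91 and 6.43 lies among other genes. The 4 genes were picked on folds of these libraries.

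LRRC3DN, TTF2 and FHL1 ranked at 1, 2 and 3 by mean endogenous fold among the 222 genes, and at 1, 2 and 4 by mean wild type fold among the 203 genes listed in both wild type libraries. ERH ranked at 12 and 17. The 4 genes were picked on folds of these libraries, so high ranks are favoured by construction. The genes between FHL1 and ERH in the endogenous order included HNRNPK, BICD2, TBL1XR1, TNKS2, NAA15, ATPIF1 and G2E3. Neighbours in this order could overlap, as did ERH, at 6.43 in both endogenous libraries, and G2E3, a ubiquitin ligase gene, at 5.80 and 7.16. BICD2, a dynein adaptor gene, was at 1.29 and 1.90 with wild type QKI-5 and at 8.16 and 6.51 with endogenous QKI. A high endogenous fold was therefore not matched by a high wild type fold in every gene of this range.

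The bases that were enriched in both wild type libraries were nearly all enriched in both endogenous libraries too. At LRRC3DN, 248 of 252 such wild type bases (98.4%) were shared, and they made up 94.3% of the 263 bases enriched in both endogenous libraries. At TTF2, 187 of 198 wild type bases (94.4%) were shared, which was 98.9% of 189 endogenous bases. At FHL1 all 295 wild type bases lay within the 405 endogenous bases, of which they were 72.8%. At ERH all 120 wild type bases lay within the 150 endogenous bases, of which they were 80%. Wild type bases were counted only from clusters on a locus built from endogenous clusters, so a large overlap is favoured by construction. The share over other 3′ UTR loci was not counted. At FHL1 and ERH the wild type site was narrower.

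Positions within a site are given from the centre of the leading locus along the transcript, with negative values upstream. The FHL1 cluster with the highest fold was centred at −107 and −107.5 bases with wild type QKI-5 and at −109.5 and −86.5 bases with endogenous QKI. The lowest FHL1 folds within the locus, 4.01 and 3.32 with wild type QKI-5 and 4.29 and 4.51 with endogenous QKI, stood below these peaks, and all 4 lay downstream of the highest cluster. At TTF2 the highest clusters were centred at −39.5 and −34.5 bases in the mutant libraries, at −49 and −45 bases with wild type QKI-5, and at −1 and 42.5 bases with endogenous QKI. The TTF2 folds varied little over the site, from 8.51 to 9.56 in endogenous library 2. The TTF2 mutant clusters on the locus lay inside the wild type clusters, and 52 bases were enriched in both mutant libraries.

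**Figure D4:**
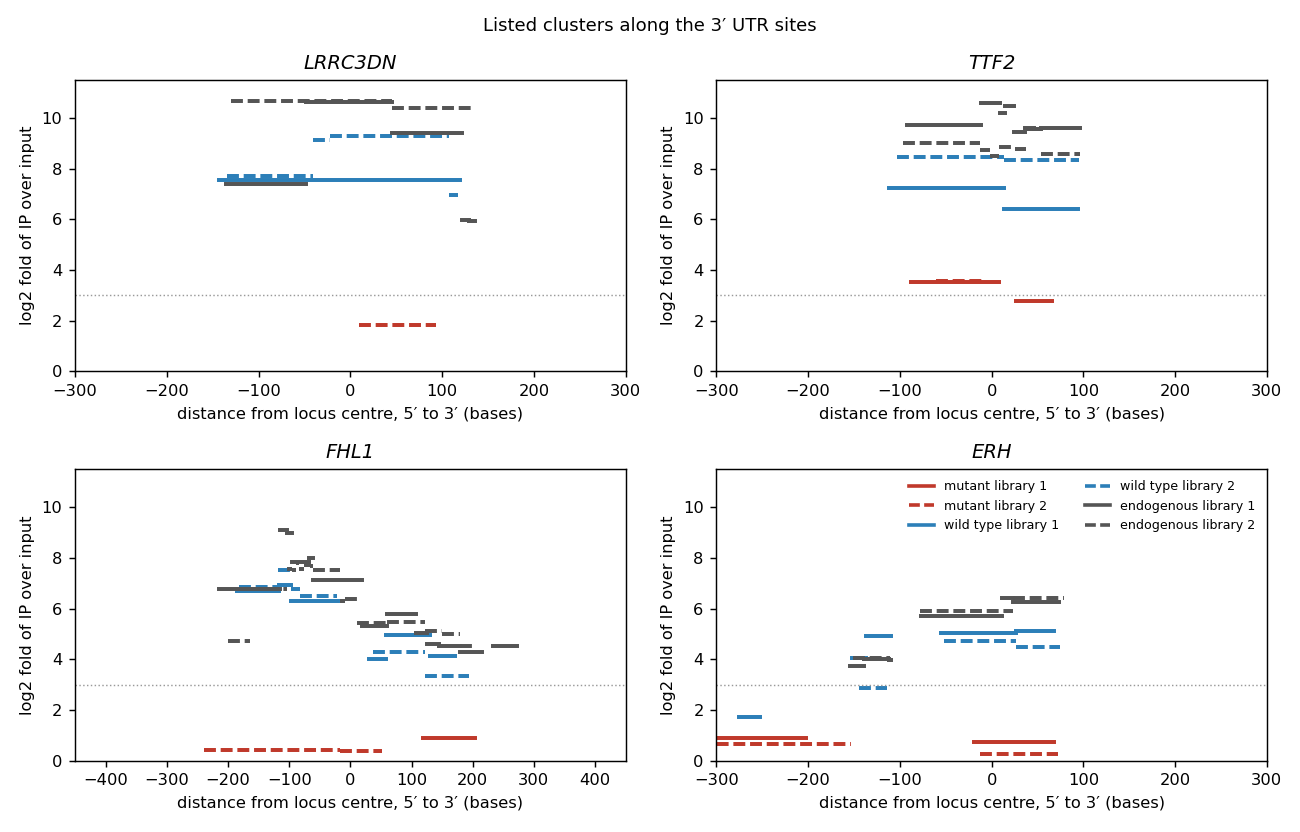
Log2 fold over input (vertical axis) of the listed clusters within the plotted distance at the 4 sites, against the distance in bases from the centre of the leading locus, read 5′ to 3′ along the transcript (horizontal axis). Each bar spans 1 cluster, solid for library 1 and dashed for library 2, in red for mutant, blue for wild type and grey for endogenous, and the dotted line marks a log2 fold of 3. The wild type and endogenous bars cover largely the same stretch at each site, the highest FHL1 bars lie in its 5′ part, and the TTF2 mutant bars shown lie within the stretch of the wild type ones.

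Apart from the 3′ UTR loci described above, the surroundings held few clusters. Within 1000 bases on either side of the leading loci, clusters on those loci left out, the endogenous libraries listed no cluster on the same strand at any of the 4 genes. Wild type library 1 listed 1, at ERH with a log2 fold of 1.72, and wild type library 2 listed none. The mutant libraries listed 7 and 3 low clusters there, none of them enriched, with a highest log2 fold of 2.61 beside FHL1 in library 1.

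In the authors' reproducible lists, the 3′ UTR loci of the 4 genes held 1 of 55 mutant peaks, 17 of 3671 wild type peaks and 33 of 12409 endogenous peaks. By gene, LRRC3DN had 0, 4 and 3 peaks in the mutant, wild type and endogenous lists, TTF2 had 1, 2 and 8, FHL1 had 0, 7 and 16, and ERH had 0, 4 and 6. In all, 2, 244 and 530 peaks of the mutant, wild type and endogenous lists lay on 3′ UTR loci. A count of peaks depends on how finely a site was divided, as at TTF2, where 8 endogenous peaks and 2 wild type peaks covered nearly the same bases.

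Outside their 3′ UTRs, the 4 genes had 4 loci, all in introns, and these were not used to choose the genes. They were found in FHL1 (2 loci), TTF2 and ERH. The strongest was a distal intron site of FHL1 (135272000 to 135272097, plus strand), which was enriched in both endogenous libraries at 4.60 and 4.52. There the wild type libraries had 2.22 and 3.14 with a −log10 p of 0.81 and 1.93, and no mutant library listed a cluster. The intron loci of TTF2 and ERH and the remaining one of FHL1 were listed in endogenous library 2 alone among the endogenous libraries, at 2.62, 2.93 and 3.27. Of the 4 loci, 0 and 0 had a listed cluster in the mutant libraries, against 2 and 2 in the wild type libraries. None of these wild type clusters was enriched. Beside those at the distal FHL1 site, they were ERH in library 1 at 1.22 and the remaining FHL1 locus in library 2 at 0.61. Their −log10 p was 1.04 and 0.24. Over all 453720 loci outside 3′ UTRs, the listed shares were 9.16% and 10.9% in the mutant libraries and 18.1% and 19.3% in the wild type libraries. The mutant minus wild type difference of −50 percentage points over the 4 loci gave p = 0.333 in an exact permutation test (two-sided), which is the least that a comparison of 2 with 2 libraries allows. Any full separation of 2 from 2 libraries gives this p, so it measures neither the size of the difference nor the spread. The labels do not say whether libraries came from separate cultures.

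Among the other genes, those most like each of the 4 were taken as the nearest by Euclidean distance over the log2 folds of the 6 libraries, with missing clusters at 0. ERH had close neighbours: SALL1, a zinc finger transcription factor gene, at a distance of 0.99, G2E3 at 1.18 and LRRC57 at 1.25. G2E3 was at 0.83 in mutant library 1 and not listed in mutant library 2, at 4.85 and 5.29 with wild type QKI-5, and at 5.80 and 7.16 with endogenous QKI. Among the 3 genes nearest to FHL1 were TNKS2, a tankyrase gene, at 2.96 and NAA15, an N-terminal acetyltransferase subunit gene, at 3.17. Among those nearest to TTF2 were HNRNPK at 5.39 and TNKS2 at 6.99. Those nearest to LRRC3DN included NAA15 at 6.02 and TNKS2 at 6.12. Among the 4 genes themselves, the distances ran from 4.07, between FHL1 and ERH, to 8.07, between LRRC3DN and ERH. LRRC3DN was nearer to TTF2, at 4.18, and to FHL1, at 4.47, than to NAA15, and TTF2 was nearer to FHL1, at 5.01, than to HNRNPK. The wild type and endogenous folds that chose the genes enter these distances, so nearness among the 4 genes is favoured by construction. ERH was nearer to SALL1, G2E3 and LRRC57 than to any of the other 3.

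Related genes were counted in 3 lists, too small to set against the share of loci. Of 10 genes known as QKI mRNA targets, 5 had a 3′ UTR locus, 0 were enriched in both mutant libraries, 0 in both wild type libraries and 1 in both endogenous libraries, where the backgrounds over all 3′ UTR loci were 0.00428%, 0.564% and 1.08%. That gene was HNRNPA1, which encodes an hnRNP splicing repressor. It was not listed in mutant library 1 and was at 0.01 in mutant library 2, at 1.41 and 1.91 with wild type QKI-5, and at 5.02 and 4.60 with endogenous QKI. Of 7 relatives of the 4 genes by family, 2 had a 3′ UTR locus (FHL2 and LRRC3) and 0 were enriched in both libraries of any group. Of 7 protein partners of ERH or TTF2, 2 had one (POLDIP3 and CDC5L), with log2 folds below 0 wherever an endogenous library listed a cluster, and 0 were enriched. DGCR8 and DROSHA, the Microprocessor subunits, had no 3′ UTR locus.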

How the data were processed

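The 6 immunoprecipitation libraries were analysed, 2 per group by title. Inputs were used only in the form of the authors' folds. Per the submitters' processing notes, the tools were STAR, SAMtools, cutadapt and UMI-tools and the build hg19; the sources used here give no peak caller, version or read depth. Per the file headers, the clusters are normalized to input, and the authors deposited their log2 fold. They also deposited a −log10 p for each cluster, capped at 400. The authors' deposited browser score was not used. Libraries held 226962 to 384347 clusters. Names and regions were those annotated in the endogenous files, and coordinates are 1-based.

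Loci were formed and compared with Python 3.11.15, numpy 2.4.6 and pandas 2.3.3 (figures: matplotlib 3.10.9), taking an overlap of at least 1 base on the same strand. The steps were tested on simulated data. The 4 genes and the gene lists were chosen with earlier results of these data known. Genes named by rule were the 4, the 3 nearest to each, and list genes enriched in both endogenous libraries. Some genes that these rules name are not reported here. HNRNPK in the mutant, SLC38A2, BICD2, the genes ranked between FHL1 and ERH, and other list genes were named after their values were seen. A planned motif comparison was not run, since no hg19 sequence was used here.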

Additional observations from a re-analysis of the deposited data

How the results depend on the processing

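Of the planned and added alternatives, 88 kept a result within the spread of its libraries, within 1.5 times its count or on its side of the test, 10 moved it, and none reversed a sign. Some of the 88 could not move. With 2 libraries, leaving 1 out always shifts a mean by less than its SD. Clusters of the genes all carried 1 gene name, so keeping sole names removed none of them. The p outside 3′ UTRs was at its floor in every setting. At the leading loci the endogenous cluster with the highest fold was always at the −log10 p ceiling. Choosing by fold therefore changed no endogenous value there. The mutant count of enriched 3′ UTR loci per library, 1 of 7 at the thresholds used, was 0 with a log2 threshold of 4 and 0.5 on average with a −log10 p threshold of 5. The mutant median log2 fold of 0.77 (mean of the 2 libraries' medians) was 1.02 with a larger overlap required and 0.21 with missing clusters at 0. The wild type median of 6.85 was 7.22 with the highest-fold cluster, as was the FHL1 wild type mean, and 4.91 with missing clusters at 0. The number of 3′ UTR loci enriched in both mutant libraries, 1, was 2 with a log2 threshold of 2, 0 with one of 4 and 0 with a −log10 p threshold of 5, all chosen after seeing the data. Leaving out 1 library at a time gave medians of 0.65 to 0.90 in the mutant, 6.76 to 6.93 in wild type and 6.43 to 7.79 in endogenous. The difference outside 3′ UTRs was −100 over loci listed in both endogenous libraries, which is 1 locus, the FHL1 distal intron site, and −50 with library number as a replicate block, where the exact sign-flip p was 0.5. Deviations of same-numbered mutant and wild type libraries had a correlation of −0.04 over 322 loci. This cannot tell whether same-numbered libraries shared a culture or batch, which the labels do not say. Motif alternatives were not run. Read depth is unknown, so low folds have no counting interval.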
